A study of Homo sapiens with 4 samples.

Results

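Keratin genes were examined in T24 cells, a line from a human bladder carcinoma, that carried an empty vector (EV, genotype control in the labels) or overexpressed the catalytic domain of TET1 (TET1-CD). TET1 is an enzyme that oxidizes 5-methylcytosine in DNA. Both populations were stable lentiviral transfectants of the same line selected with puromycin, TET1-CD carrying a FLAG tag, and RNA-seq was available for 2 EV and 2 TET1-CD libraries. Cells were grown in RPMI with serum. The labels do not say whether the libraries of a group came from separate cultures, and p-values then measure only the spread between these libraries, which may be technical. Keratins were taken as all genes whose symbol is KRT, a number and at most a letter from A to C. This gave 56 of the 57879 genes in the files, of which 27 lie on chromosome 12 and 29 on chromosome 17 of GRCh37, with 190 transcripts. KRT222 has 2 gene entries, so that the 56 entries carry 55 symbols.

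Keratins are the intermediate filament proteins of epithelial cells. An acidic type I keratin pairs with a basic type II keratin, and these pairs assemble into filaments that are anchored at desmosomes and hemidesmosomes. The type I genes form a cluster on chromosome 17 and the type II genes a cluster on chromosome 12, except KRT18, which encodes a type I protein and lies beside its partner KRT8 on chromosome 12. Simple epithelia make KRT8, KRT18, KRT7 and KRT19. Basal cells of stratified epithelia make KRT5 with KRT14 or KRT15, activated or wounded epithelia make KRT6, KRT16 and KRT17, and the hair shaft is built from hair keratins such as KRT81, KRT86 and KRT34. In the bladder, KRT7, KRT8, KRT18 and KRT19 are made by most urothelial cells, KRT5 by basal cells and KRT20 by umbrella cells.

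The libraries held 17442143 to 20295266 estimated counts, and the totals of both groups overlapped. TET1 rose from 111 and 83 (EV) to 2939 and 3310 (TET1-CD) counts, a log2 fold change of 5.02 (with a standard error of 0.08, adjusted p = 4.9e-10 by edgeR), in the direction of the labels. Of 8 urothelial markers, 4 had enough counts for a test. GATA3 and FOXA1 were higher in TET1-CD cells by edgeR, beside 10.0% of all genes tested, but were not called by DESeq2. PPARG (log2 0.10) and UPK3B (log2 0.87) were not called, and the uroplakins UPK1A, UPK1B and UPK3A had at most 3 counts in any library. Summed normalized counts of the urothelial list, mostly FOXA1 and PPARG, were 832 to 876 in EV and 1023 to 1072 in TET1-CD cells. Of 6 mesenchymal markers, 5 were tested, and VIM, FN1 and ZEB2 were lower in TET1-CD cells. ZEB1 (log2 0.09) and SNAI2 (log2 0.12) were not called, and TWIST1 was at 0. The summed level, mostly VIM and FN1, was 132321 to 133306 in EV and 104700 to 108632 in TET1-CD cells. Over all genes tested 9.61% were called lower, FN1 was not called without TET1-CD replicate 1 (adjusted p = 0.299 by edgeR) or 2 (0.107), and VIM was not called without TET1-CD replicate 1 (0.0928). Of 6 fibroblast markers, 2 were tested. COL1A1 was higher (88 and 70 counts against 266 and 314), beside 10.0% of all genes tested that were called higher. PDGFRB was not called (21 and 13 against 22 and 25). The summed level, mostly COL1A1, went from 95.0 to 102 in EV to 313 to 330 in TET1-CD cells. DCN, LUM, PDGFRA and COL1A2 had no more than 4 counts in any library. Of 4 leukocyte markers, 2 were tested and 0 called. The summed level, mostly CD68, was 470 to 639 in EV and 442 to 448 in TET1-CD cells, and PTPRC and CD3E had at most 2 counts in any library. Of the 3 endothelial markers found, 0 had enough counts for a test. The part of these marker changes in the keratin values was not tested. In bulk RNA, a larger share of cells that make a keratin and more RNA per cell cannot be told apart.

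Most keratin genes were silent or nearly so in T24 cells. Of the 56 genes, 29 had 0 counts in all 4 libraries, which at this depth allows a level of up to 0.148 to 0.172 CPM in a library if 3 counts are taken as the limit that a count of 0 allows. This limit covers counting error only. Genes at 0 numbered 16 on chromosome 12 and 13 on chromosome 17, and they included KRT5, KRT6A, KRT6C, KRT1, KRT9, KRT13 and KRT20. A further 14 genes had a few counts but too few for a test, and 12 of these had at most 3 counts in every library. KRT83, a hair keratin, had 4 and 3 (EV) and 3 and 1 (TET1-CD) counts. KRT78 had 4 and 1 counts in EV and 0 in both TET1-CD libraries. KRT14, the basal type I keratin, had 0 and 2 (EV) and 1 and 0 (TET1-CD) counts. KRT6B, a keratin of activated epithelium, had 2 and 0 (EV) and 0 and 1 (TET1-CD) counts. KRT16, of the same kind, had a single count, in EV replicate 1. No difference between the groups was detectable for these 43 genes at this depth.

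The other 13 genes had enough counts for a test, 6 on chromosome 12 and 7 on chromosome 17. All but KRT86 and the shorter KRT222 entry had at least 10 counts in every library. A keratin was called higher or lower at an adjusted p under 0.05 in edgeR's quasi-likelihood test over all 14573 genes tested. KRT81, KRT17, KRT19, KRT7 and KRT18 rose in TET1-CD cells and 0 keratins fell. The 5 rises were 38.5% of the keratins tested, beside 10.0% of all genes tested that were called higher. The 0 falls stand beside 9.61% of all genes tested that were called lower, and the count was also 0 at an unadjusted p under 0.05 and by DESeq2. Without TET1-CD replicate 1, which lowered the number of calls over all genes as well, only KRT81, KRT17 and KRT19 were called higher. Of the called keratins, KRT81, KRT17 and KRT19 had a fold change of at least 2, beside 2.72% of all genes tested that met both limits. TET1-CD libraries were both above the EV libraries for 8 of the 13 keratins (30.8% of all genes tested) and below them for 2 (30.2%), and the groups overlapped for 3. The median log2 fold change was 0.18 over the 13 keratins and 0.00 over all genes tested.

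**Figure D1:**
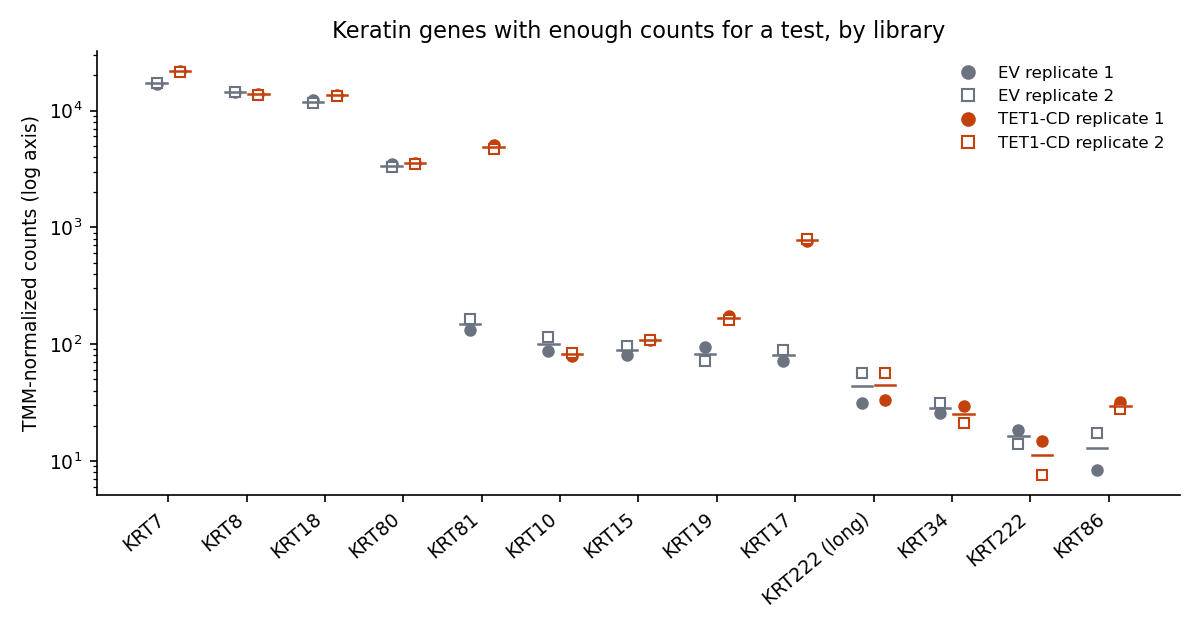
TMM-normalized counts (log axis) of the 13 keratin genes tested, ordered by level in EV, with a point per library and a line at the mean of each group of 2. KRT81 moved from 147 to 4846 and KRT17 from 80.3 to 782 between the group means, whereas the points of KRT7, KRT8, KRT18 and KRT80 lie close together.

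KRT81, a type II keratin of the hair shaft cortex, showed the largest rise of any keratin. EV libraries held 143 and 151 counts of it, and TET1-CD libraries 4721 and 4901. Both TET1-CD libraries were far above both EV libraries. On the FPKM scale, which divides by transcript length and library size, the level was 3.65 and 4.49 in EV against 139.79 and 130.07 in TET1-CD cells. The mean of TMM-normalized counts went from 147 ± 21.9 to 4846 ± 252 (SD, n = 2 each). The log2 fold change equalled 5.05 (with a standard error of 0.09), which is 33.0-fold, with an adjusted p of 7.66e-10 by edgeR. Among the 14573 genes tested, KRT81 ranked 26 by log2 fold change and 2 by p. The gene lies on chromosome 12 from 52679697 to 52685318 on the minus strand, and the files list 1 transcript for it. Its FPKM was 0.0758 and 0.100 of that of KRT80 in EV, and 2.81 and 2.66 times that of KRT80 in TET1-CD cells.

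KRT17, a type I keratin of skin appendages and of activated epithelium, rose next. It had 77 and 83 (EV) and 725 and 831 (TET1-CD) counts, or 3.29 and 3.75 FPKM against 30.85 and 31.36 FPKM. The groups did not overlap. Mean normalized counts went from 80.3 ± 13.1 to 782 ± 14.1 (SD, n = 2 each), a log2 fold change of 3.29 (with a standard error of 0.12), or 9.78-fold, with an adjusted p of 1.05e-07 by edgeR. KRT17 ranked 88 by log2 fold change and 11 by p among the genes tested. It lies on chromosome 17 from 39775689 to 39781094 on the minus strand. The transcript ENST00000311208 held 75.8% and 84.8% of its counts in EV against 89.7% and 90.6% in TET1-CD cells.

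KRT19, the type I keratin of simple epithelia that lacks most of the tail domain, had 103 and 66 (EV) and 165 and 169 (TET1-CD) counts. Its FPKM was 3.65 and 2.75 in EV against 6.87 and 6.53 in TET1-CD cells, without overlap. Mean normalized counts went from 83.1 ± 16.8 to 168 ± 10.3 (SD, n = 2 each). The log2 fold change equalled 1.01 (with a standard error of 0.17), or 2.01-fold, with an adjusted p of 0.00273 by edgeR. KRT19 lies on chromosome 17 from 39679869 to 39684560 on the minus strand.

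The abundant simple-epithelial keratins moved little. KRT7, a type II keratin of ducts and urothelium on chromosome 12 from 52626304 to 52645970, had 18429 and 15981 (EV) and 20533 and 22638 (TET1-CD) counts. After normalization its level went from 17125 ± 169 to 21707 ± 205 (SD, n = 2 each). It rose 1.27-fold (log2 0.34, standard error 0.05, adjusted p = 0.00175 by edgeR), and the groups did not overlap. Without TET1-CD replicate 1, its adjusted p was 0.0766.

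KRT18, the type I partner of KRT8, had 13250 and 10759 (EV) and 12737 and 14091 (TET1-CD) counts. Before normalization these counts overlapped, and after it the level was 11918 ± 436 in EV and 13488 ± 94.7 in TET1-CD cells (SD, n = 2 each), without overlap. It rose 1.13-fold (log2 0.18, standard error 0.05, adjusted p = 0.0414 by edgeR). This rise was not called without TET1-CD replicate 1 (adjusted p = 0.369) or without TET1-CD replicate 2 (adjusted p = 0.287). KRT8, the type II partner, had 15684 and 13472 (EV) and 13053 and 14312 (TET1-CD) counts. Its normalized level was 14505 ± 45.9 in EV and 13761 ± 184 in TET1-CD cells (SD, n = 2 each), a log2 fold change of -0.08 (with a standard error of 0.05, adjusted p = 0.338 by edgeR). After normalization both TET1-CD libraries were below both EV libraries, whereas the raw counts and the FPKM overlapped. The FPKM of KRT18 was 0.846 and 0.852 times that of KRT8 in EV and 0.999 and 1.04 times in TET1-CD cells.

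KRT8 and KRT18 lie side by side on opposite strands, on chromosome 12 from 53290977 to 53343738 and from 53342655 to 53346685, and their annotated exons share 525 bases. The library protocol in the labels names no step that marks the strand, so reads in these shared bases cannot be assigned by strand. The main transcript of KRT8, ENST00000293308, held 80.8% to 88.6% of its counts, that of KRT18, ENST00000388835, held 97.7% to 98.9%, and that of KRT7, ENST00000331817, held 97.1% to 97.7%.

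KRT80, a type II keratin of differentiating epithelium, was the keratin with most counts after KRT7, KRT8 and KRT18 in EV, and it came after KRT81 as well in TET1-CD cells, with 3771 and 3017 (EV) and 3363 and 3690 (TET1-CD) counts. Its log2 fold change equalled 0.07 (with a standard error of 0.06, adjusted p = 0.395 by edgeR). Together, KRT7, KRT8, KRT18 and KRT80 made up 98.8% and 98.6% of all keratin counts in EV against 89.4% and 89.8% in TET1-CD cells. KRT81 made up 0.276% and 0.344% in EV against 8.49% and 8.04% in TET1-CD cells. All keratins held 0.255% and 0.251% of the library in EV against 0.317% and 0.312% in TET1-CD cells.

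**Figure D2:**
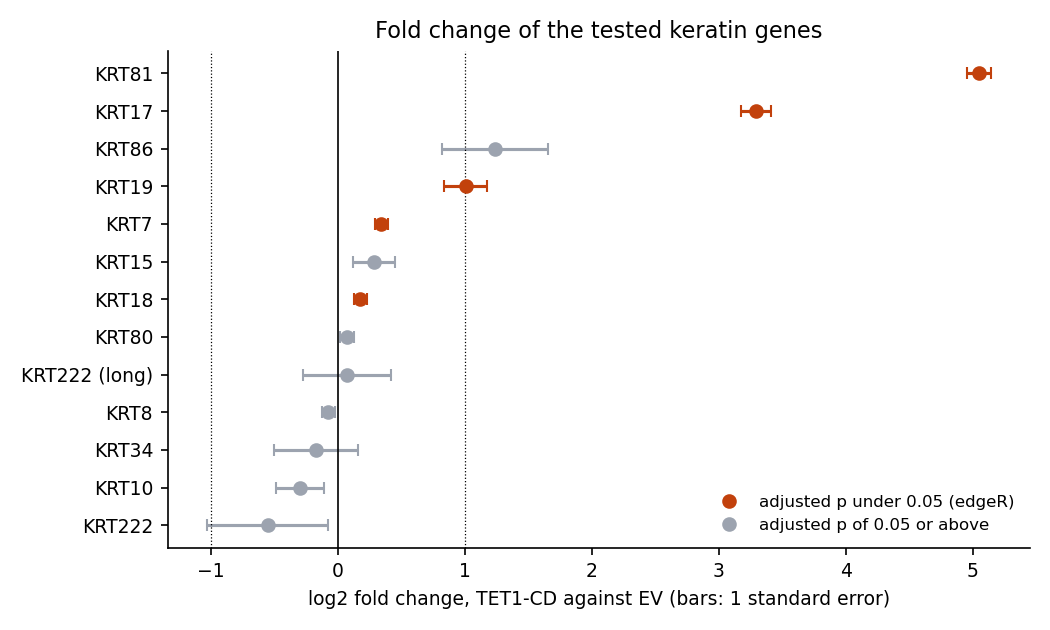
Log2 fold change of TET1-CD against EV (x axis) for the 13 keratin genes tested, with bars of 1 standard error from edgeR, dotted lines at a 2-fold change and the 5 called genes in orange. KRT81 (5.05) and KRT17 (3.29) stand far to the right, and KRT86 (1.24) lies past the dotted line with a wide error and no call.

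The remaining keratins were expressed at a low level and none was called. KRT86, a type II hair keratin, had 9 and 16 (EV) and 30 and 29 (TET1-CD) counts. The groups did not overlap, and the log2 fold change equalled 1.24 (with a standard error of 0.42, adjusted p = 0.0627 by edgeR). Its counts fell on different transcripts, on ENST00000423955 in EV replicate 1, on ENST00000544024 in EV replicate 2 and on ENST00000293525 in both TET1-CD libraries. Without the filter on low counts its adjusted p was 0.0179, and without EV replicate 2 it was 0.0211, with a log2 value of 1.82. Without EV replicate 1 the log2 value was 0.77 (adjusted p = 0.254 by edgeR), and DESeq2 gave an adjusted p of 0.369. KRT15, a type I keratin of basal cells, had 87 and 90 (EV) and 101 and 113 (TET1-CD) counts (log2 0.28, standard error 0.17, adjusted p = 0.265 by edgeR). KRT10, the type I keratin of the suprabasal epidermis, had 94 and 107 (EV) and 74 and 89 (TET1-CD) counts, with a log2 fold change of -0.30 (with a standard error of 0.19, adjusted p = 0.307 by edgeR). KRT34, a type I hair keratin, had 28 and 29 (EV) and 28 and 22 (TET1-CD) counts, and the groups overlapped (log2 -0.17, standard error 0.33, adjusted p = 0.764 by edgeR).

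KRT222 encodes a keratin-like protein, and its gene entries share a stretch of chromosome 17. The longer entry, from 38785049 to 38821393, also overlaps SMARCE1, and it had 34 and 52 (EV) and 31 and 60 (TET1-CD) counts. The spread within each group exceeded the difference between them. The shorter entry had 20 and 13 (EV) and 14 and 8 (TET1-CD) counts, a log2 fold change of -0.55 (with a standard error of 0.48, adjusted p = 0.464 by edgeR). Reads in the shared stretch may be split between both entries, and their values are uncertain.

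Promoter sequences were read for the keratins in the RefSeq promoter table (GRCh38.p14), which holds 250 bases before and 50 bases after each gene start. Of the 55 symbols, 34 matched, with 38 promoters. Among the keratins tested, KRT8, KRT10 and KRT34 matched, and KRT7, KRT15, KRT17, KRT18, KRT19, KRT80, KRT81, KRT86 and KRT222 did not. The 250 bases before a listed start of the 3 matched keratins are shown for their base composition and core motifs. Matches to TATAAA and CCACCC are in capitals. KRT8 has 18 listed transcripts, and whether the start used here is that of its main transcript ENST00000293308 was not checked. The windows, all from the minus strand, are KRT8 at chr12:52926470-52926719, KRT10 at chr17:40822615-40822864 and KRT34 at chr17:41382307-41382556.
KRT8: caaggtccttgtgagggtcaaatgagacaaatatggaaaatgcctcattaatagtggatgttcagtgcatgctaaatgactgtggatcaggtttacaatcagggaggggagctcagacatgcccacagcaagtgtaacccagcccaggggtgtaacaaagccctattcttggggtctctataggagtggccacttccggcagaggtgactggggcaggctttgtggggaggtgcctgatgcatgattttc
KRT10: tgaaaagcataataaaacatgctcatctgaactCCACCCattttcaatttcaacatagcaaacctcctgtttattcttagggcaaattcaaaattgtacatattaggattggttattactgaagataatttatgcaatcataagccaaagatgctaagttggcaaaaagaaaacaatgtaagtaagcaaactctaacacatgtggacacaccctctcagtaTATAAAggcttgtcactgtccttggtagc
KRT34: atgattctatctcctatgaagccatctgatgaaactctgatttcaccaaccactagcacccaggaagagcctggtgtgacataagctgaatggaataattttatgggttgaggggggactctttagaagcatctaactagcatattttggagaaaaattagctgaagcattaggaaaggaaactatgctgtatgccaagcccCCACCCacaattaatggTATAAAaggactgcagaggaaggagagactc
TATAAA, the core of a TATA box, began 29 bases before the start of KRT10 and 31 bases before the start of KRT34. CCACCC, a motif of KLF factors, began 217 and 48 bases before these starts. The KRT8 window held no match to the 4 motifs searched, which were these 2, GGGCGG (GC box) and TGANTCA (AP-1), on both strands, none of which contains another. Among the 38 keratin promoters of 300 bases, TATAAA was present in 55.3%, beside 11.5% of all 35116 promoters, and GGGCGG in 15.8%, beside 45.0%. CCACCC was present in 28.9%, beside 34.3%, and TGANTCA in 0, beside 7.71%. These 38 promoters held a median of 2 CpG dinucleotides (0 to 8), beside 14 for all promoters, and a median GC content of 45.7%, beside 58.7%. None of the keratins that rose is among them. The full 300-base promoters of KRT8, KRT10 and KRT34, of which 250 bases are printed, held 2, 1 and 0 CpG in this order. A match describes letters in this window only.

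Grouped by the tissue in which they are known to be made, the rises fell into 3 groups. Of 6 keratins of simple epithelia, 4 were tested and KRT7, KRT18 and KRT19 rose, beside 10.0% of all genes tested, with a median log2 fold change of 0.26 over the 4. Without TET1-CD replicate 1, KRT19 was the only one of these 3 that was called. Of 5 keratins of activated epithelium, KRT17 was the only member tested. Its usual type II partners KRT6A and KRT6C were at 0 in all 4 libraries and KRT6B had at most 2 counts. Of 17 hair keratins, 3 were tested and KRT81 rose. Of the 11 type I hair keratins, which pair with KRT81 in the hair shaft, 7 were at 0, KRT34 was tested and the others had at most 3 counts in any library. Of 3 keratins of the basal layer, KRT15 was tested. Of 14 suprabasal and mucosal keratins, KRT10 and KRT80 were tested, and of 9 keratins of the inner root sheath 0 had enough counts for a test.

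**Figure D3:**
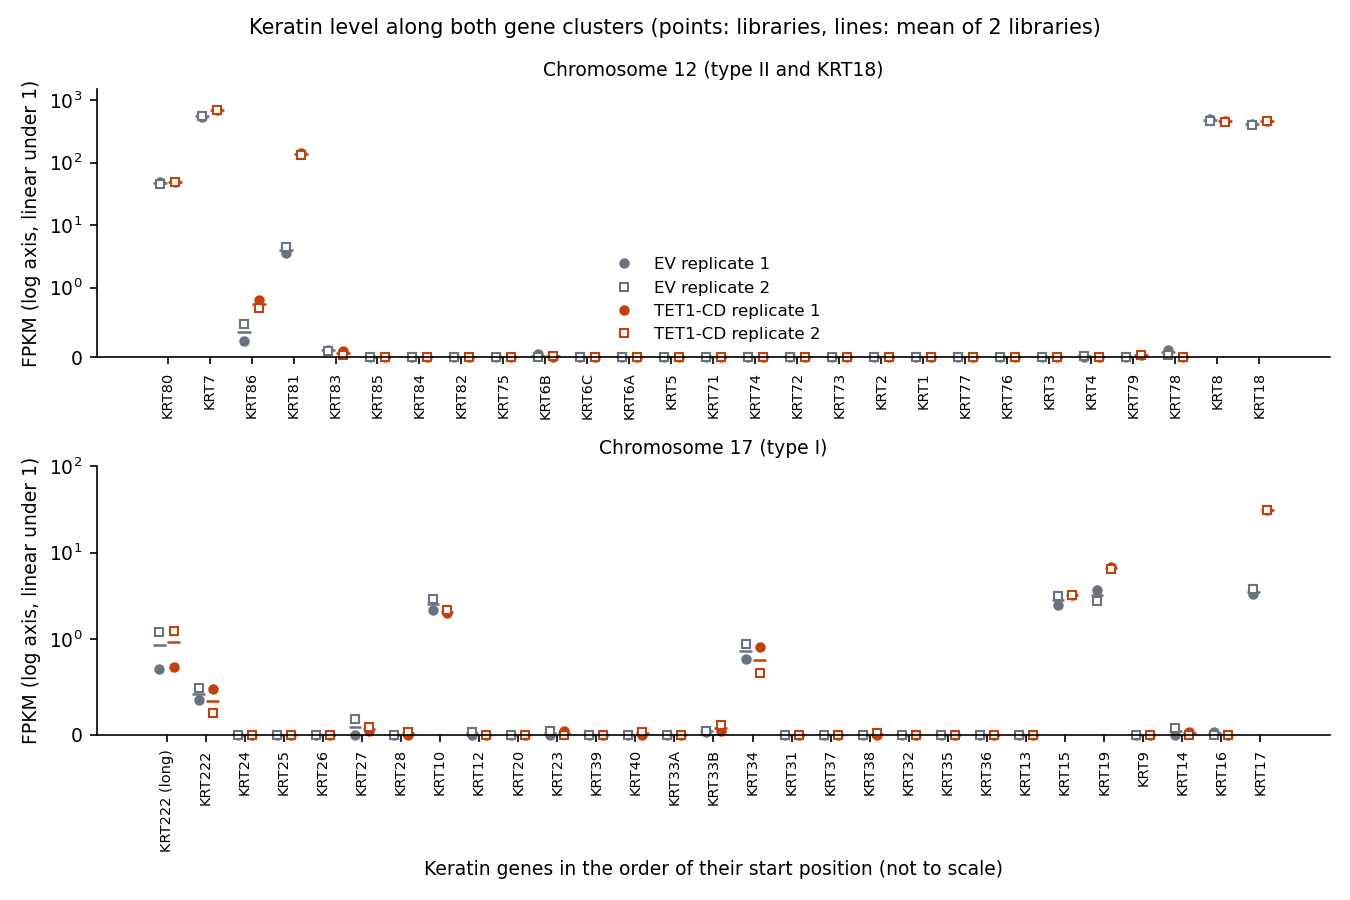
FPKM (log axis, linear under 1) of all 56 keratin genes in the order of their start positions on chromosome 12 (top) and chromosome 17 (bottom), with a point per library and a line at the mean of 2. Most genes lie at 0, KRT81 (130.07 to 139.79 FPKM in TET1-CD cells) lies between KRT86 and KRT83, which stay under 1 FPKM, and KRT17 (31.36 FPKM at most) lies beside KRT16, which is near 0.

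KRT81 lies next to KRT86 and KRT83, and KRT17 next to KRT16, and these neighbours had at most 30 counts in any library. The listed span of JUP, a keratin linker, from 39775692 to 39943183, covers nearly all of KRT17. JUP had 1187 and 1169 (EV) and 1219 and 1304 (TET1-CD) counts and was not called (log2 0.11, adjusted p = 0.348 by edgeR). Overlap of its exons with KRT17 was not tested. JUP ends past the last keratin, so the genes counted next do not include it. Between the first and the last keratin on chromosome 12, the files list 26 genes that are no keratins, of which 1 had enough counts for a test and 0 were called. On chromosome 17 they list 55, of which 2 were tested and 0 were called, beside 19.7% of all genes tested. The gene tested on chromosome 12 was RP3-416H24.1, which lies antisense to KRT7 (log2 -0.12, adjusted p = 0.497 by edgeR). Those on chromosome 17 were TMEM99 (log2 -0.35, adjusted p = 0.0956 by edgeR) and KRTAP2-3. These 3 genes lie outside the rule for named genes and were picked as all the genes tested there.

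KRT81 shares much of its sequence with other hair keratins. In GENCODE release 44 on GRCh37, its transcript of 1929 bases was identical to that of KRT86 at 87.5% of aligned bases, to KRT83 at 86.4% and to KRT85 at 81.1%. Of its 1830 windows of 100 bases, 538 (29.4%) also occur in KRT86 without a mismatch, and 0 in KRT83 or KRT85. Counts of KRT86 are uncertain for this reason, and the part of KRT81 reads in them was not tested. The span of KRT86, from 52643084 to 52702947 on the plus strand, contains KRT81 on the other strand, but their annotated exons share 0 bases. When the counts of these related genes were summed, the log2 fold change of KRT81 and its relatives was 4.91. KRT17, with a transcript of 1517 bases, was identical to KRT14 at 83.7% and to KRT16 at 79.1% of aligned bases, with 0 of its 1418 windows of 100 bases found in either. Summed with its relatives, KRT17 had a log2 fold change of 3.26.

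Summed by chromosome, the type I keratins of chromosome 17 differed more between the groups than the keratins of chromosome 12. Type I sums were 411 and 483 (EV) and 1215 and 1238 (TET1-CD) normalized counts, a log2 ratio of means of 1.46. Type II sums, which here include KRT18, were 47334 and 46833 in EV against 57937 and 56827 in TET1-CD cells, a log2 ratio of 0.29. The ratio of type I to type II was 0.00868 and 0.0103 in EV against 0.0210 and 0.0218 in TET1-CD cells, or 2.25-fold higher. The groups overlapped in none of these 3 values, but with 2 libraries a group an exact permutation test cannot give a p below 0.333, and no test was made. KRT17 held 17.3% and 18.5% of the chromosome 17 keratin counts in EV against 63.5% and 63.9% in TET1-CD cells. Without KRT17 the type I log2 ratio was 0.28, and without KRT81 the type II log2 ratio was 0.16, both chosen after the values were seen.

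With KRT18 counted as the type I protein it encodes, the ratio of type I to type II was slightly lower in TET1-CD cells. Type I sums were then 12637 and 12093 in EV against 14770 and 14659 in TET1-CD cells, a log2 ratio of 0.25. Type II sums were 35107 and 35223 in EV against 44382 and 43406 in TET1-CD cells, a log2 ratio of 0.32. The ratio of type I to type II was 0.360 and 0.343 in EV against 0.333 and 0.338 in TET1-CD cells, a log2 ratio of -0.069. On FPKM the same ratio was 0.396 and 0.386 in EV against 0.378 and 0.387 in TET1-CD cells, and the groups overlapped.

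Genes that work with keratins were compared in 5 lists. Of 37 genes tested, 8 rose and 11 fell, beside 10.0% and 9.61% of all genes tested. NES, PKP3, PPL and TFAP2A were the 4 of these 19 genes that were called in every alternative run, DESeq2 and the omission of each library included. DESeq2 called 10, and over all genes 1472 of 25160 with a count, beside 2865 of 14573 by edgeR. The filter of edgeR was not applied to DESeq2, which by default filters low counts itself, so these shares have unlike denominators. Omitting either TET1-CD library also lowered the number called, among these genes and over all genes. Of 15 other intermediate filament genes, 7 were tested, NES and BFSP1 rose and VIM fell. NES, which encodes nestin of neural and muscle progenitors, had 57 and 46 (EV) and 139 and 164 (TET1-CD) counts (log2 1.57, standard error 0.16, adjusted p = 0.000163 by edgeR). VIM, the intermediate filament of mesenchymal cells, had 63997 and 59891 (EV) and 43958 and 50115 (TET1-CD) counts. It fell by 0.39 on the log2 scale (standard error 0.06, adjusted p = 0.00232 by edgeR), and the groups did not overlap. Without TET1-CD replicate 1 its adjusted p was 0.0928. BFSP1, a filament protein of the eye lens, had 24 and 23 (EV) and 46 and 48 (TET1-CD) counts (log2 1.01, adjusted p = 0.0287 by edgeR).

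Of 13 linkers that tie keratins to junctions and to other filaments, 12 were tested. EPPK1 and PLEC rose and PKP3 and PPL fell, beside 10.0% and 9.61% of all genes tested. PKP3, a desmosomal plaque protein, had 1241 and 1160 (EV) and 769 and 926 (TET1-CD) counts (log2 -0.49, standard error 0.07, adjusted p = 0.00132 by edgeR). PPL, the plakin periplakin, had 76 and 81 (EV) and 24 and 30 (TET1-CD) counts (log2 -1.53, standard error 0.24, adjusted p = 0.00224 by edgeR). EPPK1, epiplakin, had 7 and 9 counts in EV and 30 in both TET1-CD libraries (log2 1.90, standard error 0.41, adjusted p = 0.0105 by edgeR, 0.0965 by DESeq2). The groups overlapped for none of these 3 genes, which were named for their small p. Over all genes tested, both TET1-CD libraries were above the EV libraries for 30.8% and below them for 30.2%. PLEC, plectin, had a log2 fold change of 0.17 (adjusted p = 0.048 by edgeR).

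Keratin-associated proteins form the matrix of the hair shaft. Of the 110 genes with such a symbol, 109 had at most 3 counts in every library. The 110 include entries whose symbols mark a pseudogene, such as KRTAP3-4P, or an antisense RNA, KRTAP5-AS1, and these encode no such protein. KRTAP2-3 was tested, with 13 and 15 (EV) and 27 and 22 (TET1-CD) counts (log2 0.82, adjusted p = 0.179 by edgeR). Of 21 genes of the cornified envelope, the cross-linked shell of terminally differentiated keratinocytes, 2 were tested and 15 had at most 3 counts in every library. PI3, a protease inhibitor that is cross-linked into the envelope, fell from 292 and 429 counts to 189 and 132 (log2 -1.16, standard error 0.26, adjusted p = 0.0116 by edgeR). Over all genes tested, 9.61% were called lower.

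Of 23 transcription factors known to act on keratin genes, 15 were tested, 4 rose and 7 fell, beside 10.0% and 9.61% of all genes tested. DESeq2 called 0 of the 4 that rose, with adjusted p from 0.0957 (KLF5) to 0.298 (HOXC13), and did not call ELF3, SP1 and RUNX1 among those that fell. TFAP2A, an AP-2 factor of epidermal cells, had 541 and 464 (EV) and 274 and 371 (TET1-CD) counts (log2 -0.63, adjusted p = 0.00302 by edgeR). CEBPB had 1933 and 1789 (EV) and 1283 and 1577 (TET1-CD) counts (log2 -0.37, adjusted p = 0.00477 by edgeR). KLF4, a factor of epithelial differentiation, had 476 and 484 (EV) and 309 and 335 (TET1-CD) counts (log2 -0.57, adjusted p = 0.00518 by edgeR). The other factors that fell were ELF3, JUN, SP1 and RUNX1. The factors that rose were GATA3, HOXC13, FOXA1 and KLF5. These 8 factors, like PLEC, were named after their values were seen. GATA3, a luminal urothelial factor, had 19 counts in both EV libraries and 46 and 44 in TET1-CD cells (log2 1.25, adjusted p = 0.0163 by edgeR). HOXC13, a factor of the hair shaft, had 122 and 130 (EV) and 175 and 179 (TET1-CD) counts (log2 0.50, adjusted p = 0.0387 by edgeR).

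**Figure D4:**
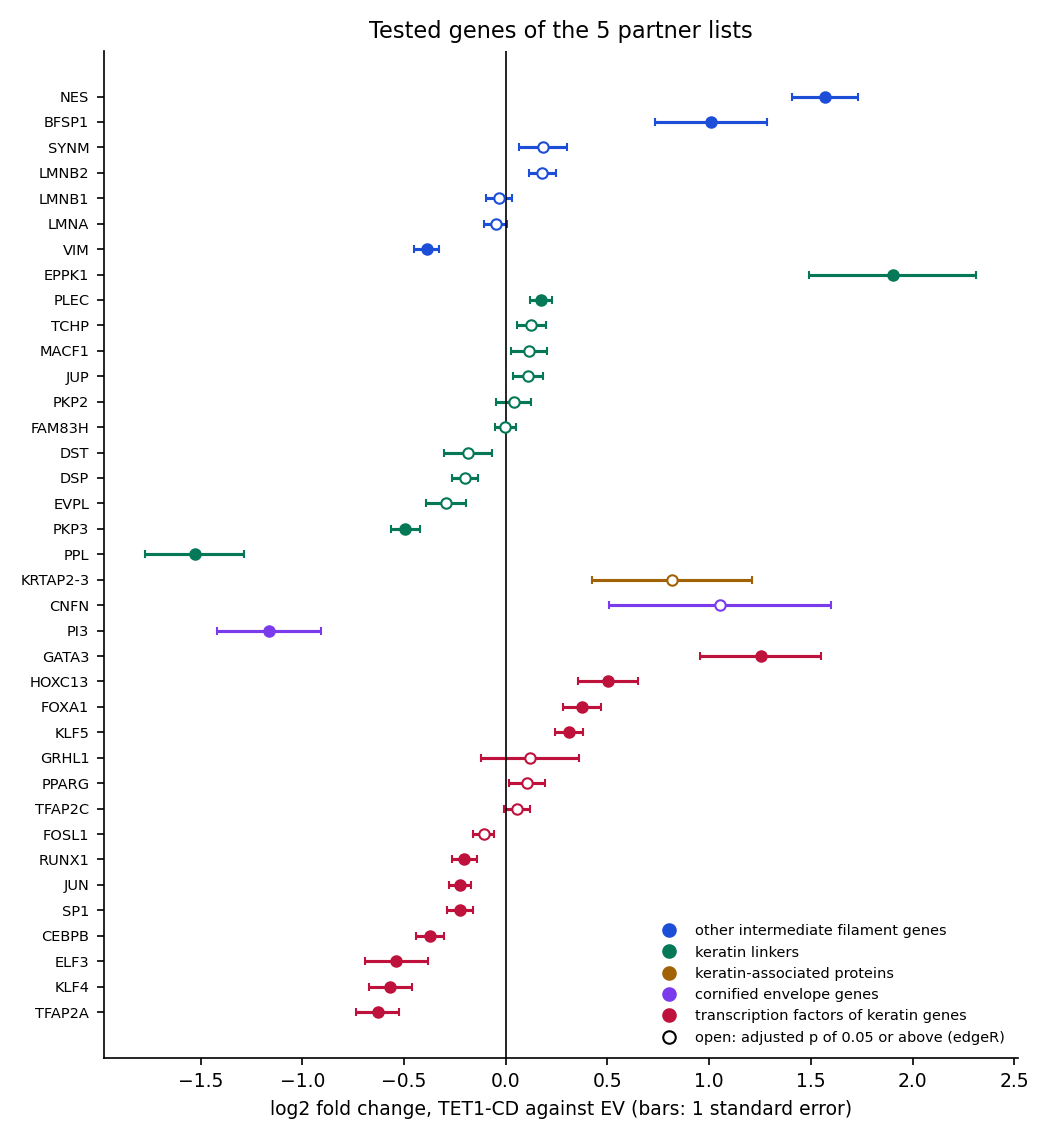
Log2 fold change of TET1-CD against EV (x axis) for the 37 tested genes of the 5 partner lists, coloured by list, with bars of 1 standard error from edgeR and open points for genes that were not called. Filled points lie on both sides of 0, with EPPK1 (1.90) and NES (1.57) farthest to the right and PPL (-1.53) and PI3 (-1.16) farthest to the left.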

How the data were processed

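RNA-seq of T24 cells, 2 EV and 2 TET1-CD libraries, was analysed. For each transcript the authors deposited expected counts, that is, fragment numbers estimated by a model and often fractional. The deposited FPKM values are scaled to transcript length and library size. Per the labels' processing notes, cutadapt 1.9.1, HISAT2 2.0.1, HTSeq 0.6.1 and DESeq2 were used with hg19 (GRCh37). The counter that gave fractional counts per transcript is not given in the sources used here. Such a counter divides reads between transcripts, and between genes that share stretches of sequence, by estimation, which bears on KRT81 and KRT86.

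Counts and FPKM values were added up over the transcripts of a gene, and the summed counts were rounded. The main test was the quasi-likelihood test of edgeR 4.0.16 in R 4.3.3 (TMM, filterByExpr, without a block), with Benjamini-Hochberg adjustment over 14573 genes. TMM-normalized counts are scaled to the mean library size. Standard errors were obtained as the log2 fold change over the root of F. The test was tried on simulated counts. Alternatives were DESeq2 1.42.0, limma-voom (3.58.1), RLE size factors, no scaling beyond library size, no filter and a minimum of 10 counts per library. A replicate block, the summing of related keratins and the omission of each library were tried as well. Sums were also made with FPKM and with KRT18 as type I, and the combination of both was chosen after seeing the data.

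By rule, the genes named were all keratins tested, up to 3 called genes with the smallest p of each partner list, the markers, and TET1. JUP and the keratins named despite too few counts for a test lie outside this rule. The keratins, lists and groups were chosen with earlier results of these data known. Same-numbered libraries of both groups deviated from their group means with a correlation of 0.00713, which shows no large shared shift by number. This value cannot tell whether same-numbered libraries were handled together, and the labels do not say. The value of 1 marker gene is not reported here.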

Additional observations from a re-analysis of the deposited data

How the results depend on the processing

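DESeq2, RLE size factors, library size only, at least 10 counts in every library and limma-voom each called the same 5 keratins higher and 0 lower. So did the summing of related keratins, with KRT81 and KRT17 then taken with their relatives. Without a filter, 6 were called, with KRT86 added. Without 1 library, 3 to 6 were called higher and 0 lower. Without TET1-CD replicate 1 these were KRT17, KRT19 and KRT81, without TET1-CD replicate 2 KRT18 was lost, and without EV replicate 2 KRT86 was added. Over all alternatives, the log2 fold change ranged from 4.88 to 5.19 for KRT81, with a highest adjusted p of 1.59e-08, from 3.12 to 3.46 for KRT17 (1.02e-06) and from 0.82 to 1.23 for KRT19 (0.034).

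Of the partner genes, DESeq2 called 10, against 19 by edgeR. Without 1 library 6 to 24 were called, with 6 without TET1-CD replicate 1 and 7 without TET1-CD replicate 2. With the replicate block, 5 keratins and 22 partner genes were called, and KRT18 had an adjusted p of 0.0285. Among the partner genes, BFSP1, EPPK1, GATA3, HOXC13, FOXA1, KLF5, ELF3, RUNX1 and SP1 were not called by DESeq2 or in some omissions of 1 library, and PLEC, JUN, VIM, CEBPB, KLF4 and PI3 were not called in 1 or 2 omissions. FN1 was not called without either TET1-CD replicate. RUNX1 was also not called with library size only. No sign turned for these genes. The labels do not say whether the numbers pair the libraries, and the block ended no keratin call.

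Counted with KRT18 as type I, the log2 ratio of TET1-CD to EV was 0.25 for the type I sum, 0.32 for the type II sum and -0.069 for type I to type II. On FPKM the type I sum gave 1.65 and the type I to type II ratio 1.37. On FPKM with KRT18 as type I, the type I sum gave 0.27, the type II sum 0.31 and the ratio -0.033, with overlapping groups. Without 1 library the type I sum gave 1.34 to 1.58, the type II sum 0.27 to 0.30 and the ratio 1.05 to 1.30. The turn follows from which sum KRT18 enters. The longer KRT222 entry (ENSG00000264058) turned to -0.31 without EV replicate 1 and to -0.39 without TET1-CD replicate 2, with 0.53 at most. KRT34 turned to 0.066 without TET1-CD replicate 2, with -0.44 at least, and neither was called in any of these. The cause was not tested.

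Depth limits the 43 keratins with too few counts for a test. With 2 libraries a group, the spread of a single gene is poorly known and is borrowed from all genes.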
